A study of Mus musculus with 8 samples.

Results

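Messenger RNA levels of the Myc family and of its Max-linked partners were examined in ventricular heart tissue of mouse embryos. The 10 genes were taken by symbol from the primary chromosomes of a table of 52778 rows, and they are Myc, Mycn, Mycl, Max, Mxd1, Mxd3, Mxd4, Mxi1, Mnt and Mga. Each symbol stood on a single row, and 9 of the 10 reached the mean of at least 1 TPM (a per-length share of a library's transcripts, so that levels of different genes can be compared) needed to enter the test. The member below it was Mycl.

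The study compared 4 libraries from conditional knockout embryos (cKO) with 4 from control embryos at embryonic day 11.5. The cKO embryos carried Rps19bp1 fl/fl together with Xmlc2-Cre +/−, a Cre transgene active in cardiomyocytes, and the series text calls the 4 libraries of each group biological replicates. The labels do not say which floxed or Cre alleles the controls carried, and the genotype field reads C57BL/6 WT in all 8 libraries. Cells of the ventricle other than cardiomyocytes are not targeted by the Cre, so the tissue is a mixture of cells with and without the gene.

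Rps19bp1, which encodes a nucleolar binding partner of ribosomal protein S19, stood at 37.5% of its control mean in cKO (limma log2 change -1.37, adjusted p = 0.000508), and its groups did not overlap. The extraction text names cultured cortical neurons, so the tissue was checked against markers: the median of 18 cardiomyocyte genes lay between 1104 and 1356 TPM in the 8 libraries, and that of 12 neuronal genes between 0.167 and 0.378 TPM. Of the 12 neuronal genes, 2 reached the mean needed for the test, Tubb3 (3.45 to 12.1 TPM) and Stmn2 (0.711 to 3.27 TPM). Only Neurod6 was listed at 0 in all libraries. Mitochondrially encoded transcripts took 11.4% to 12.2% of TPM in control and 13.2% to 16.2% in cKO, which lowers all other values slightly in cKO.

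Proteins of this network carry a basic helix-loop-helix leucine zipper and bind DNA as dimers, preferring the E-box CACGTG. Myc, Mycn and Mycl dimerise with Max and activate genes of growth, ribosome production and the cell cycle. Mxd1, Mxd3, Mxd4, Mxi1 and Mnt compete for Max, and their dimers repress the same kind of site through the Sin3 corepressor. Mga joins a T-box domain to the same dimerisation domain and recruits a Polycomb complex. In the embryonic heart Mycn is required in cardiomyocytes for growth of the ventricular wall.

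Promoter sequences were taken from the RefSeq promoter table of GRCm38.p6, which covers 250 bases before to 50 bases after each annotated start, and 9 of the 10 members (all but Myc) were matched. The palindrome CACGTG was searched, so that both strands are read together, without regard to overlap with other motifs. It was present in 3 of these 9 genes, Max, Mnt and Mxd4, against 8.09% of all 27025 genes in the promoter table and 11.7% of the 10908 tested genes that had a promoter there. The following stretches are shown because they hold the DNA letters that the network's own dimers prefer, in genes of the network, with CACGTG in capitals. The Max stretch (chr12:76962246-76962498, minus strand) has the motif beginning 3 bases before the start given in the promoter table. In the Mnt stretch (chr11:74830674-74830923, plus strand) it begins 123 bases before the start given there, and in the Mxd4 stretch (chr5:34187711-34187960, minus strand) 219 bases before. The starts used for Max and Mnt lie inside their rows, which begin at chr12:76962323 (minus strand) and chr11:74830806 (plus strand). The Max motif therefore also lies inside its row. The end of the Max window was not found in the Max transcripts it was compared with.
Max: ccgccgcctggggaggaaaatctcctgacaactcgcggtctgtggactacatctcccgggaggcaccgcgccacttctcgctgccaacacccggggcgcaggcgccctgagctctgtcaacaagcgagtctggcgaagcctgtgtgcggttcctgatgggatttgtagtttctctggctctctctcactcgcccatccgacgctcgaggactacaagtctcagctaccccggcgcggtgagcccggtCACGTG
Mnt: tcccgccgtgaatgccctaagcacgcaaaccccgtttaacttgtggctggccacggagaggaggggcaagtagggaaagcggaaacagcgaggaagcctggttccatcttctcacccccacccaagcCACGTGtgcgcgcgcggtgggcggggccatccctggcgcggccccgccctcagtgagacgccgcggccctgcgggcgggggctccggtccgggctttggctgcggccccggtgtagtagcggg
Mxd4: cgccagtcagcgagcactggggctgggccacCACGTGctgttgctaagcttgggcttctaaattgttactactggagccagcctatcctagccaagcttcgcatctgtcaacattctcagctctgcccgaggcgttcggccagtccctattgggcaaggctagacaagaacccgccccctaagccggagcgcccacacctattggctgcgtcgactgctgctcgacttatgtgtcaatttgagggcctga
A match describes these letters in this window and was not tested as a binding site. No CACGTG lay in the windows of Mycn, Mycl, Mxd1, Mxd3, Mxi1 or Mga. The windows of Mycl, Mxi1 and Mga lie inside their rows, so the sequence at the beginning of these rows was not searched. For Mga the window begins at chr2:119896978 and the row at chr2:119872503.

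None of the 9 tested members passed the limma threshold (adjusted p under 0.05 over all 15541 tested rows), where 6.4% of all tested rows did. Their adjusted p-values lay between 0.139 and 0.925, and 1 member had an unadjusted p under 0.05, against 23.7% of all tested rows. In 0 of the 10 members did the cKO and control libraries stand apart without overlap, against 15.6% of all tested rows. Fitted changes were 0.19 or less in size on the log2(TPM + 1) scale, a scale that understates changes of low genes, with 5 members above and 4 below 0. Their median was 0.02, beside -0.02 over all tested rows. The widest limits of the 9 intervals at 95% confidence were -0.34, for Mxi1, and 0.41, for Myc, so changes beyond these sizes lie outside every interval.

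**Figure D1:**
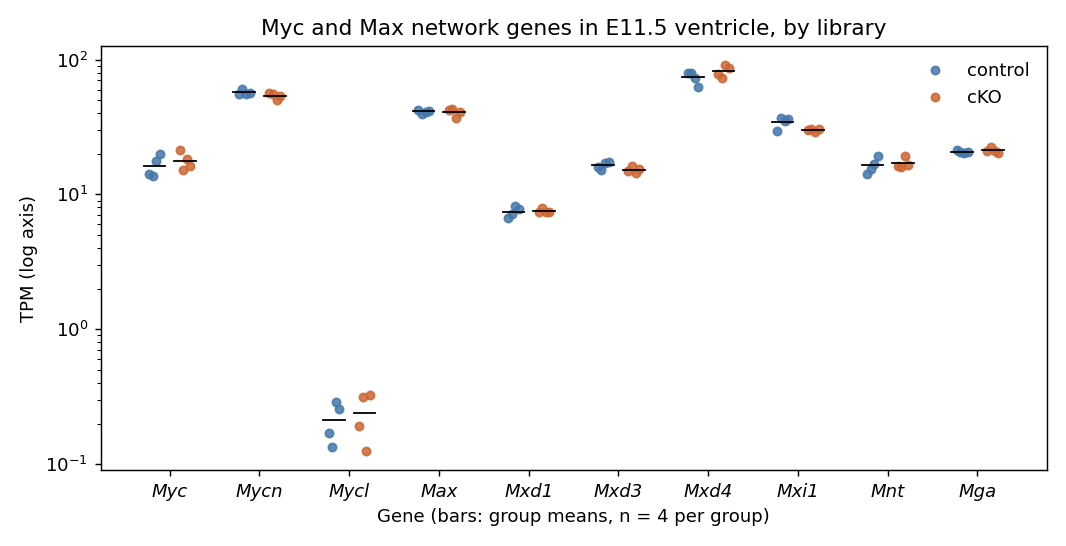
TPM on a log axis for each of the 10 genes in the 4 control (blue) and 4 cKO (orange) libraries, with bars at the group means. The groups overlap for every gene, from Mxd4 and Mycn at the top to Mycl, which lies below 0.33 TPM in all libraries.

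Mycn was the most abundant Myc paralog in every library. Control libraries 1 to 4 held 55.97, 60.3, 55.96 and 56.2 TPM of Mycn, and cKO libraries 1 to 4 held 56.1, 55.7, 50.1 and 53.6 TPM. The 2 highest values were in control and the 3 lowest in cKO, yet cKO replicate 1 lay within the control range. Means were 57.1 ± 2.11 TPM in control and 53.9 ± 2.72 TPM in cKO (SD, n = 4). The log2 change of Mycn was -0.08 with a 95% interval from -0.20 to 0.03 (limma adjusted p = 0.36, exact permutation p = 0.0857).

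Myc, the founding member of the family, was present at lower levels and varied more between libraries. It stood at 14.2, 13.7, 17.6 and 19.9 TPM in control libraries 1 to 4 and at 21.3, 15.3, 18.5 and 16.2 TPM in cKO libraries 1 to 4. The highest value was in cKO and the 2 lowest in control, with the rest interleaved. Means were 16.3 ± 2.90 TPM in control and 17.8 ± 2.69 TPM in cKO (SD, n = 4), and the log2 change was 0.12 with an interval from -0.16 to 0.41 (limma adjusted p = 0.615, exact permutation p = 0.457). The interval of Myc is the widest among the tested members, and its change ran from 0.04 without cKO replicate 1 to 0.22 without control replicate 4.

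Mycl, the third paralog, lay between 0.125 and 0.325 TPM in the 8 libraries. Its values were 0.170, 0.135, 0.287 and 0.255 TPM in control and 0.193, 0.312, 0.125 and 0.325 TPM in cKO, so the groups interleaved (exact permutation p = 0.629). The table keeps no read depth, and how many reads lie behind such low values is unknown.

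Together the 3 paralogs summed to 73.7 ± 2.47 TPM in control and 71.9 ± 3.92 TPM in cKO (SD, n = 4). Mycn made up 73.7% to 81.3% of that sum in control and 72.3% to 78.1% in cKO. Myc made up 18.5% to 26.0% in control and 21.5% to 27.5% in cKO, and the share of Mycl stayed below 0.464% in all libraries. These sums are descriptions, and no test was made on them.

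Max, the partner that all Myc and Mxd proteins share, spanned 36.6 to 43.4 TPM over the 8 libraries. Its control libraries 1 to 4 held 42.4, 39.7, 40.9 and 41.9 TPM and its cKO libraries 42.0, 43.4, 36.6 and 40.8 TPM. Both the highest and the lowest value came from cKO. The log2 change of Max was -0.02, with an interval from -0.15 to 0.11 (limma adjusted p = 0.87), and its sign turned to 0.03 after quantile normalization, to 0.01 after either of the other scalings and to 0.03 without cKO replicate 3.

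Mxi1, which pairs with Max and recruits Sin3, had the smallest limma p among the members, while the smallest exact permutation p was that of Mycn. Control libraries 1 to 4 held 29.7, 36.9, 35.2 and 36.5 TPM and cKO libraries 30.2, 30.7, 28.96 and 30.6 TPM. Control replicates 2 to 4 lay above all cKO libraries, and control replicate 1 lay among them. Means were 34.6 ± 3.34 TPM in control and 30.1 ± 0.800 TPM in cKO (SD, n = 4), with a log2 change of -0.19 and an interval from -0.34 to -0.03 (limma unadjusted p = 0.0222, adjusted p = 0.139, exact permutation p = 0.114). Without control replicate 1 the log2 change was -0.26 and passed the threshold (limma adjusted p = 0.0363), and over the other alternatives the adjusted p was 0.114 to 0.28.

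Mxd4 was the most abundant of the 10 genes. It stood at 78.9, 79.9, 73.3 and 62.6 TPM in control libraries 1 to 4 and at 78.1, 72.5, 90.8 and 87.3 TPM in cKO libraries 1 to 4. The 2 highest values were in cKO and the lowest in control, with overlap between. Its log2 change was 0.16, with an interval from -0.05 to 0.36 (limma adjusted p = 0.336, exact permutation p = 0.257), and it was 0.08 without control replicate 4.

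Mxd3, an Mxd protein known from proliferating progenitor cells, held 15.9, 15.2, 17.1 and 17.5 TPM in control and 15.0, 16.2, 14.5 and 15.4 TPM in cKO. The 2 highest values were in control and the 2 lowest in cKO. The log2 change of Mxd3 was -0.10 (interval -0.24 to 0.04, limma adjusted p = 0.395). Its row overlaps Prelid1 on the opposite strand, which had a mean of 468 TPM, and the strand setting of the counting is not given in the sources used here, so the level of Mxd3 is uncertain.

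Mxd1, classically induced when cells leave the cycle and differentiate, held 6.70, 7.18, 8.15 and 7.84 TPM in control and 7.37, 7.99, 7.45 and 7.37 TPM in cKO. All cKO values lay within the control range. The log2 change was 0.02 (interval -0.15 to 0.18, limma adjusted p = 0.925), and it was -0.03 without control replicate 1. Leaving out cKO replicate 2 also turned its sign.

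Mnt, a broadly expressed antagonist of Myc, held 14.2, 15.4, 16.8 and 19.4 TPM in control and 16.3, 16.1, 19.1 and 16.6 TPM in cKO. Here too the cKO values lay inside the control range. The change of Mnt was 0.05 on the log2 scale (interval -0.16 to 0.26, limma adjusted p = 0.79), and it was -0.01 without control replicate 1. Mga held 21.2, 20.8, 20.1 and 20.6 TPM in control and 21.0, 22.4, 21.0 and 20.3 TPM in cKO, with a log2 change of 0.03 and an interval from -0.08 to 0.14 (limma adjusted p = 0.737). The 8 values of Mga spanned 20.1 to 22.4 TPM, with the groups interleaved, and its change was 0.01 without cKO replicate 2.

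**Figure D2:**
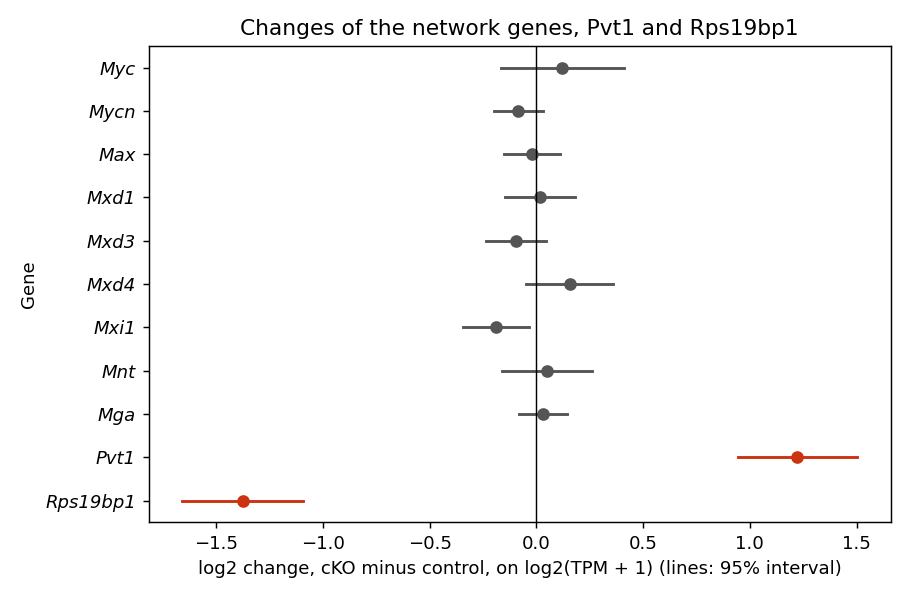
Fitted log2 change (cKO minus control, on log2(TPM + 1)) with its 95% interval for the 9 tested members, for Pvt1 and for the targeted gene Rps19bp1, in red where the limma adjusted p was under 0.05. The members lie between -0.19 and 0.16, while Pvt1 is at 1.22 and Rps19bp1 at -1.37.

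By mean TPM over the 8 libraries, which is a per-length level, the order was Mxd4 (77.9), Mycn (55.5), Max (40.96), Mxi1 (32.3), Mga (20.9), Myc (17.1), Mnt (16.7), Mxd3 (15.9), Mxd1 (7.51) and Mycl (0.225). From Mxd4 to Mga each gene exceeded the next in all 8 libraries. Mga exceeded Myc in 7 of the 8, Myc exceeded Mnt in 4 and Mnt exceeded Mxd3 in 5, so the order among Myc, Mnt and Mxd3 was within the spread between libraries. Mxd3 lay above Mxd1 and Mxd1 above Mycl in all 8. The genes Mxd1, Mxd3, Mxd4, Mxi1 and Mnt summed to 148.6 ± 4.98 TPM in control and 152 ± 8.28 TPM in cKO (SD, n = 4), with Mxd4 at 43.5% to 54.3% of the sum in control and 50.6% to 56.4% in cKO. Summed Myc paralogs per summed repressing partners came to 0.496 ± 0.0236 in control and 0.474 ± 0.0463 in cKO (SD, n = 4), with libraries from 0.479 to 0.531 and from 0.427 to 0.528, and no test was made on this ratio.

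The genes whose profile over the 8 libraries was nearest to that of Myc, by the root mean square difference of centred log2(TPM + 1) values, were Itpr3 (0.0578), Dock6 (0.0694) and Zswim6 (0.0706), where the median over all candidate genes was 0.231. For Mycn they were Stk25 (0.0196), Dhx29 (0.0225) and Yars (0.0256), with a median of 0.126. None of these 6 genes passed the limma threshold, and their adjusted p-values ran from 0.245 to 0.639. This largely follows from their choice by likeness to Myc and Mycn, which did not pass either.

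Pvt1, a long non-coding RNA gene that follows Myc on chromosome 15 and a known p53 target, rose in cKO. It stood in a list of 23 genes for Myc stability and modification, which was chosen with earlier results of these data known. Pvt1 lies at chr15:62037986-62260215 on the plus strand, 47624 bases beyond the end of Myc (chr15:61985341-61990361, plus strand), in GRCm38 coordinates. Control libraries 1 to 4 held 1.78, 1.65, 1.81 and 1.40 TPM of Pvt1 and cKO libraries 1 to 4 held 5.46, 4.78, 6.63 and 4.17 TPM. Every cKO library was above every control library, and the cKO mean was 317% of the control mean. Means were 1.66 ± 0.184 TPM in control and 5.26 ± 1.06 TPM in cKO (SD, n = 4), a log2 change of 1.22 with an interval from 0.943 to 1.501 (limma adjusted p = 0.00103, exact permutation p = 0.0286, the smallest that 70 assignments can give). The size of this change depends on the pseudocount, as Pvt1 is low: it was 1.59 with a pseudocount of 0.1 and 0.62 with one of 5, and the call held with both.

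**Figure D3:**
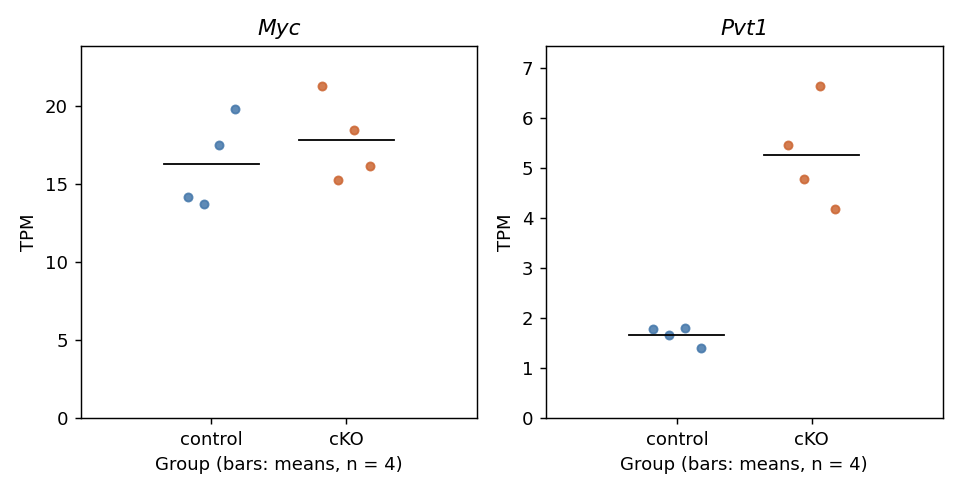
TPM of Myc (left) and Pvt1 (right) in the control and cKO libraries, on axes that start at 0, with bars at the group means. The Myc values interleave, while Pvt1 lies between 1.40 and 1.81 TPM in control and between 4.17 and 6.63 TPM in cKO.

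Expressed per 100 TPM of Myc, Pvt1 amounted to 10.5 ± 2.47 TPM in control and 29.6 ± 4.97 TPM in cKO (SD, n = 4), with libraries from 7.07 to 12.5 and from 25.6 to 35.9. The row is for the whole gene, so its isoforms cannot be told apart. It contains Macroh2a3 on the opposite strand, at a mean of 0.549 TPM. Across the 8 tested rows that start within 2.5 Mb of the start of Myc, a window set after the values of Pvt1 were seen, 1 was called and that was Pvt1, where 6.4% of all tested rows were called. An unadjusted limma p under 0.05 was found for 3 of the 8, against 23.7% of all tested rows. On the side of lower coordinates, Lratd2 had a log2 change of 0.28 with groups that did not overlap (limma adjusted p = 0.0627). The row 9930014A18Rik, which overlaps Lratd2 on the opposite strand, had one of 0.23, also with groups apart (limma adjusted p = 0.256), and Trib1 one of 0.10 (limma adjusted p = 0.499). On the other side, Cyrib had a fitted change of -0.15 in log2 units (limma adjusted p = 0.204) and Asap1 one of -0.03 (limma adjusted p = 0.712). Rps19bp1 lies on the same chromosome, 18000398 bases beyond Pvt1.

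**Figure D4:**
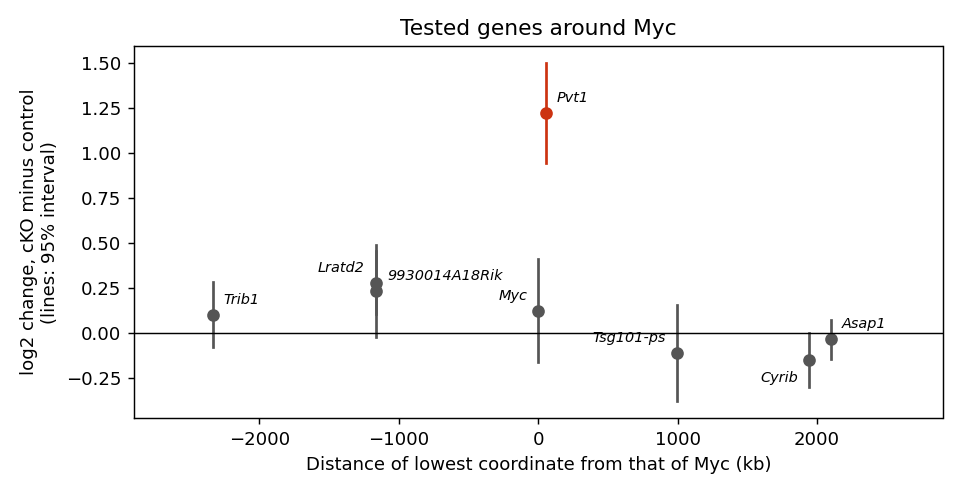
Fitted log2 change with its 95% interval for the 8 tested rows around Myc, against the distance in kb of each row's lowest coordinate from that of Myc, in red where the limma adjusted p was under 0.05. Pvt1 stands at 1.22, and the other 7 rows lie between -0.15 and 0.28.

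Other genes of the list acting on Myc's stability and modification were called lower or did not pass. The list mixes genes that stabilise Myc with genes that act in its turnover. Counts and a median over it therefore give no direction for Myc stability. Of the 23 tested genes of the whole list, 1 was called higher (Pvt1) and 5 lower. That is 26.1% with Pvt1 counted, against 6.4% of all tested rows, and the median log2 change was -0.04. As the list was chosen with earlier results of these data known, this share is a description only. Aurka, a mitotic kinase that also shields Mycn from degradation, stood at 70.2 ± 3.85 TPM in control and 56.2 ± 6.11 TPM in cKO (SD, n = 4; change -0.32 on the log2 scale, limma adjusted p = 0.0383). Plk1, another mitotic kinase, had a fitted change of -0.35 in log2 units (limma adjusted p = 0.0419), although its groups overlapped. Gsk3a, a kinase of the family that marks Myc for turnover, had one of -0.24 (limma adjusted p = 0.0274). Cip2a, which holds back the phosphatase PP2A from Myc, had one of -0.23 (limma adjusted p = 0.0385). Usp28, a deubiquitinase that stabilises Myc and was named after its value was seen, had one of -0.21 (limma adjusted p = 0.041). Aurka overlaps Cstf1 and Gsk3a overlaps a further row on the opposite strand, so their levels are less certain. Each of these 5 calls was lost under 10 to 13 of 18 alternatives, and the 6 calls of the list became 1 without control replicate 1, 3 or 4 or cKO replicate 3, 2 without cKO replicate 1 or 4 and 3 without control replicate 2. The median of the list moved to -0.09 without control replicate 2. Pvt1 kept its call under the 17 that tested it.

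Among corepressor genes of the network, 2 of the Sin3 complex fell and none of the Mga complex passed the test. A Sin3 corepressor list of 16 genes, which held Ncor1 beside genes of the complex, had 0 called higher and 2 lower (12.5%, against 4.23% of all tested rows called lower). The median log2 change of the list was -0.11, with 14 below 0, where 55.8% of all tested rows were below 0. Sap30, a Sin3 subunit, stood at 88.1 ± 5.36 TPM in control and 65.9 ± 8.40 TPM in cKO (SD, n = 4; change -0.42 on the log2 scale, limma adjusted p = 0.0229). Ing2, which reads a methylated histone mark for the complex, had a fitted change of -0.27 in log2 units (limma adjusted p = 0.0362). These calls were lost under 6 and 11 of 18 alternatives, with 0 called without control replicate 1 or 2 or cKO replicate 1 and 1 called without control replicate 3 or 4 or cKO replicate 2 or 3. Of the 12 other genes of the complex that holds Mga, 0 were called, where 6.4% of all tested rows were, and 10 were below 0, with a median of -0.11. An unadjusted limma p under 0.05 was found for 6 of the 12, against 23.7% of all tested rows, and 1 was called without cKO replicate 2. Pcgf6, the Polycomb subunit particular to that complex, had a fitted change of -0.20 in log2 units (limma adjusted p = 0.0699), and Tfdp1, a dimer partner of E2F factors, had one of -0.16 (limma adjusted p = 0.0853). Sin3 and Mga lists share Hdac1 and Hdac2.

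The parallel Mlx arm, in which Mlx takes the place of Max, had 2 tested genes and 0 called (0 with an unadjusted limma p under 0.05 as well). Mlx had a fitted change of -0.04 in log2 units (limma adjusted p = 0.83) and Mlxip one of -0.01 (limma adjusted p = 0.902), and both signs turned under some alternatives. Mlx overlaps Psmc3ip on the opposite strand. Mlxipl, below the filter, lay between 0.174 and 0.489 TPM. Of 18 Myc cofactors, 1 was called, lower in cKO (5.56%, near the 4.23% of all tested rows called lower), and the median was -0.08. That was Paf1, a subunit of the elongation complex that binds Myc, at 80.1 ± 1.65 TPM in control and 65.5 ± 3.07 TPM in cKO (SD, n = 4; change -0.29 on the log2 scale, limma adjusted p = 0.00911), and it kept its call under all 18 alternatives.

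Genes that Myc is known to activate were examined as a list of 62, all of them tested. Of these 1 was called higher and 5 lower, or 9.68%, against 6.4% of all tested rows. This list too was chosen with earlier results of these data known, so the share is a description only. The median log2 change was -0.10 beside -0.02 over all rows, and 52 of the 62 were below 0, where 55.8% of all tested rows were. With the filter at a mean of at least 5 TPM, the list's median was -0.11 beside -0.03 over all rows tested. After quantile normalization the median was -0.05 with 46 below 0, after rescaling without mitochondrial and globin genes -0.06 with 50, and after median-ratio scaling -0.07 with 50. Ccnd2, the cyclin D2 gene, rose in cKO, where it averaged 334 ± 20.04 TPM against 236 ± 9.41 TPM in control (SD, n = 4), by 0.50 on the log2 scale (limma adjusted p = 0.00129). Ung, which removes uracil from DNA, fell by 0.61 on the log2 scale, with means of 58.4 ± 1.86 TPM in control and 38.1 ± 3.48 TPM in cKO (SD, n = 4; limma adjusted p = 0.00128). For both genes every cKO library lay on 1 side of every control library, and both calls held under all 18 alternatives.

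Further called targets were Pus1, a pseudouridine synthase (log2 change -0.27, limma adjusted p = 0.0498), Mcm4, a subunit of the replicative helicase (-0.24, adjusted p = 0.0339), Tcof1, a nucleolar factor of ribosomal RNA transcription (-0.22, adjusted p = 0.0383), and Hspd1, the mitochondrial chaperonin, named after its value was seen (-0.21, adjusted p = 0.0354). These calls were lost under 11 to 14 of 18 alternatives, and the 6 calls of the list became 2 without control replicate 3 or cKO replicate 1 or 3 and 3 without control replicate 1, 2 or 4. Ung overlaps Alkbh2, Pus1 overlaps 2 predicted genes and Hspd1 overlaps Hspe1, each on the opposite strand.

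**Figure D5:**
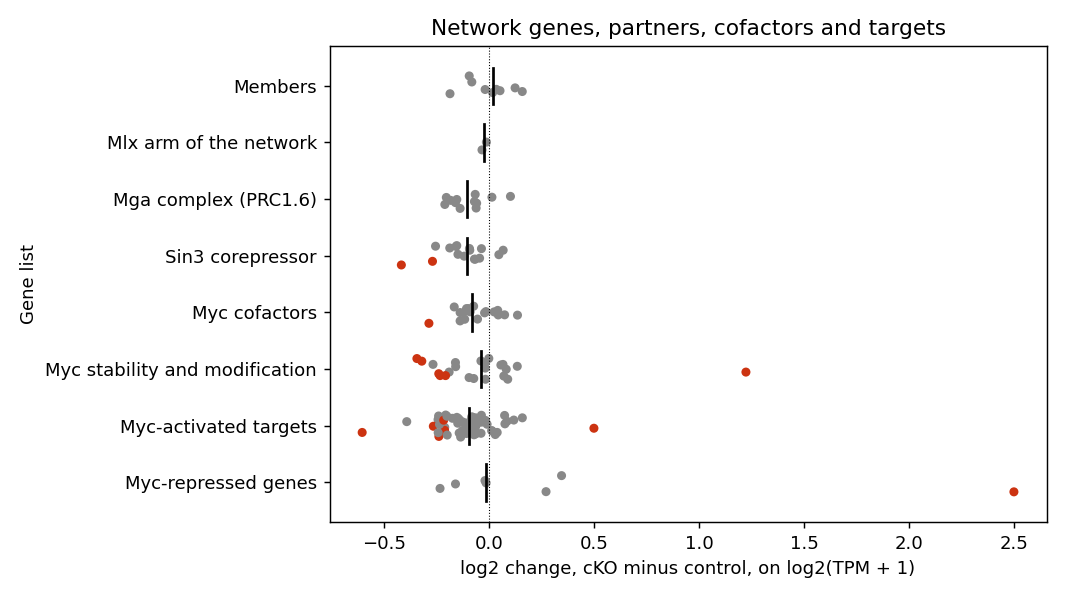
Fitted log2 change of every tested gene in the network and in 7 lists around it, in red where the limma adjusted p was under 0.05, with black bars at the medians. Most points lie between -0.3 and 0.2, and Pvt1 (1.22), Ccnd2 (0.50) and Cdkn1a (2.50) stand apart on the right.

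CACGTG was present in the promoter windows of 17 of the 54 activated targets found in the promoter table (31.5%), against 8.09% of all genes there and 11.7% of tested genes. A gene was counted where any of its windows held the motif. Of the genes that Myc is known to repress, 7 were found there and 2 had it (28.6%). For the cofactors and for the stability list the share was 11.8% each. The 17 targets with the motif had a median log2 change of -0.08, with 13 below 0 and 2 called, and the 37 without it had one of -0.11, with 33 below 0 and 1 called. The 2 called targets with the motif were Hspd1 and Pus1, and the stretches around it are shown for that reason, with CACGTG in capitals. The Hspd1 stretch (chr1:55088244-55088493, minus strand) has it 80 bases before 1 of the 2 starts in the table, and the window of the other Hspd1 start holds none. The Pus1 stretch of 30 bases (chr5:110780576-110780605, minus strand) has it from base 23 after 1 annotated start and from base 4 after the other.
Hspd1: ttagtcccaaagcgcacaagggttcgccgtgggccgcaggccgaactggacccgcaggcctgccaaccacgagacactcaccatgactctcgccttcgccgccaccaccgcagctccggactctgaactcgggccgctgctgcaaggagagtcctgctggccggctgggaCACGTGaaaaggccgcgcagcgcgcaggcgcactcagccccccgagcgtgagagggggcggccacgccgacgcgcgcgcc
Pus1: tccgccttcgtgCACGTGgtcagcttcggg

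Of 8 genes that Myc is known to repress, 7 were tested, and 1 was called, higher in cKO (14.3%, against 2.16% of all tested rows called higher). The call was Cdkn1a, which encodes the p21 cyclin-dependent kinase inhibitor and is also a main p53 target, with 29.9 ± 3.76 TPM in control and 174 ± 27.03 TPM in cKO (SD, n = 4; change 2.50 on the log2 scale, limma adjusted p = 6.53e-06). The median of the list was -0.02, and its sign was not stable. It turned to 0.16 after rescaling without mitochondrial and globin genes and to 0.13 with no filter, both with Cdkn2b in the test, to 0.05 after quantile normalization and to 0.01 after median-ratio scaling. It also lay above 0 without cKO replicate 4 (0.06) and without any single control library (0.0034 to 0.080). Gadd45a had a fitted change of 0.34 in log2 units (limma adjusted p = 0.095) and Cdkn1b one of -0.23 (limma adjusted p = 0.117). Cdkn2b, another kinase inhibitor, named after its values were seen, was below the filter, with 0.284, 0.630, 0.573 and 0.662 TPM in control and 1.22, 1.78, 0.803 and 1.495 TPM in cKO. All 4 cKO values of Cdkn2b lay above all control values (exact permutation p = 0.0286), while with no filter its limma adjusted p was 0.123.

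Markers of other cell types moved between the groups as well. Over all tested rows 2.16% were called higher, 4.23% lower and 23.7% had an unadjusted p under 0.05. Of 10 epicardial genes, 5 were called higher, with a summed level of 383 to 445 TPM in control and 453 to 557 TPM in cKO. Of 10 mesenchymal genes, 5 were called higher, with sums of 622 to 804 TPM in control and of 925 to 1131 TPM in cKO. Tcf21 is in both lists and is among the calls of each. The cardiomyocyte list had 1 called gene of 18, lower in cKO, and sums of 52512 to 57079 TPM in control and 51115 to 54207 TPM in cKO. Endocardial and endothelial genes had 0 calls of 12 (5 with an unadjusted limma p under 0.05), erythroid genes 0 of 10 (1) and macrophage genes 0 of 7 (1). Of the endocardial and endothelial genes 9 had a log2 change above 0 and 3 below, with a median of 0.11. Of the erythroid genes 9 had a log2 change below 0, with a median of -0.41 and sums of 1539 to 5496 TPM in control, the highest in control replicate 4, and of 1339 to 2873 TPM in cKO. The macrophage median was 0.39, with sums of 70.9 to 99.1 TPM in control and 75.9 to 126.9 TPM in cKO. In whole tissue, fewer cells of a type and less RNA per cell cannot be told apart, and the part of these shifts in the values of the Myc network and its lists was not tested.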

How the data were processed

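RNA sequencing of 8 libraries (4 cKO, 4 control) was deposited as a table of TPM. Per the submitters' processing notes, FastQC, Trim Galore 0.6.7, HISAT2 2.2.1, StringTie 2.2.1, featureCounts and DESeq2 were used with GRCm38, and which of them made the deposited TPM values is not stated. The annotation and the strand setting are not given in the sources used here. The labels describe the library in conflicting ways, as stranded poly(A) mRNA and as ribosomal RNA depletion. TPM keeps no depth, so precision is that between replicates. Libraries correlated at 0.986 to 0.994 (Pearson, log scale, over tested rows). All 10 members had the same start and end in RefSeq GRCm38.p6.

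Values were analysed as log2(TPM + 1) for 15541 rows with a mean of at least 1 TPM, in R 4.3.3 with limma 3.58.1 (lmFit, eBayes with trend, group as the only term, two-sided, Benjamini-Hochberg over all tested rows, threshold 0.05). Single values were compared with an exact two-sided permutation test over 70 assignments, whose smallest p is 0.0286. The members and the lists were chosen with earlier results of these data known, so shares of calls in them are descriptions only. The procedure was tested on simulated data. The changes simulated there were larger than any fitted for the members, so that test does not cover changes as small as theirs. Named were all members, Rps19bp1, up to 4 called genes of largest change in each direction per list, or the 2 of smallest p where none was called, and the 3 nearest profiles to Myc and Mycn. Others are marked in the text as named after their values were seen, and the neighbours of Myc and the marker lists were also described. Alternatives were pseudocounts of 0.1 and 5, other filters, 3 other scalings, other variance models, a block for the replicate number and leaving out each library. Figures were drawn with matplotlib 3.10.9.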

Additional observations from a re-analysis of the deposited data

Results flagged for a closer look

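In a group of 4 libraries, a value was singled out where its gap to the nearest other value took up more of the group's range than Dixon's criterion allows. This was looked for in 78 groups and found in 4, and chance alone gives about 1 in 20. Among the members, Mycn was 60.3 TPM in control replicate 2, where the other controls lay between 55.96 and 56.2 TPM. Mxd1 was 7.99 TPM in cKO replicate 2, where the others lay between 7.37 and 7.45 TPM. Among the targets, Ccnd2 was 364 TPM in cKO replicate 3, above 321 to 327 TPM in the others, and Pus1 was 41.9 TPM in control replicate 3, above 39.4 to 39.8 TPM. Without control replicate 2 the log2 change of Mycn was -0.06.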

How the results depend on the processing

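None of the tested members crossed the threshold under any of the 18 alternatives other than Mxi1, which passed without control replicate 1, so that the number of members called ran from 0 to 1 when single libraries were left out. The number of all genes called was 994 and became 347 with no filter, 609 without a trend in eBayes, 420 with the replicate block and 390 to 938 when single libraries were left out. Of the list genes named, 16 were called, and 4 of them (Paf1, Ccnd2, Ung and Cdkn1a) were called under every alternative. A mean of at least 5 TPM removed Pvt1 from the test, and Pvt1 was called under the other 17. The balance of directions over all genes moved with the scaling, with 33.8% of calls higher on TPM as deposited, 50.2% after quantile normalization, 47.8% after median-ratio scaling and 50.1% once mitochondrial and globin genes were removed and the rest rescaled. The median log2 change of all genes was -0.022 as deposited, -0.0036 after quantile normalization, 0.0031 after median-ratio scaling and 0.012 after that rescaling. The share of higher calls moved without rescaling as well, to 40.3% with no filter, 42.6% with the replicate block and 31.5% to 44.4% when single libraries were left out. The cause of the changes below was not tested.

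Signs turned for members close to 0. Max became 0.029 after quantile normalization, 0.0066 after median-ratio scaling and 0.014 after rescaling, and ran from -0.051 to 0.029 when single libraries were left out. Mlxip became 0.0058, 0.012 and 0.020 under these 3 scalings and ran from -0.038 to 0.015. When single libraries were left out, Myc ran from 0.037 to 0.22, Mxd4 from 0.081 to 0.21, Mga from 0.0067 to 0.052, Mxd1 from -0.029 to 0.054, Mnt from -0.014 to 0.13 and Mlx from -0.086 to 0.0078.

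The Sin3 list had 0 calls with no filter or with the replicate block, 1 after quantile normalization or rescaling and 0 to 2 when single libraries were left out. Its median was -0.065 after quantile normalization, -0.073 after rescaling and -0.16 to -0.064 when single libraries were left out. The median of the cofactors was -0.043 after quantile normalization and -0.049 after rescaling. The stability list had 1 call with no filter, after quantile normalization, without a trend and with the replicate block, 2 after median-ratio scaling, 3 after rescaling and 1 to 4 when single libraries were left out, with medians from -0.086 to -0.024. The activated targets had 2 calls with no filter, after median-ratio scaling, without a trend and with the replicate block, 3 after quantile normalization or rescaling and 2 to 7 when single libraries were left out. The Mga complex ran from 0 to 1 calls. The median of the activated targets was -0.054 after quantile normalization and -0.063 after rescaling. The median of the repressed genes, -0.016, turned to 0.16 after rescaling, 0.13 with no filter, 0.048 after quantile normalization and 0.012 after median-ratio scaling, and ran from -0.018 to 0.080 when single libraries were left out. Summed Myc paralogs came to 84.1 TPM in cKO and 84.07 TPM in control after rescaling.

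Same-numbered cKO and control libraries deviated together little (correlations of deviations from the group means from -0.09 to 0.07). The titles give only a replicate number, and these correlations over all tested rows cannot settle whether same-numbered libraries share anything more. The replicate block served only as an alternative.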
